A study of Mus musculus with 30 samples.

Results

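The response to interferon gamma (IFNγ) of dendritic cell line DC3.2 made deficient in IRF2 is described by 4 of the 30 RNA libraries of the series. They are the 2 libraries of IRF2KO cells given 2 ng/mL IFNγ and the 2 of IRF2KO cells left in media alone, all harvested at 2 h, and were chosen by these labels without use of any measured value. DC3.2 is an established mouse line, and the titles of the IRF2KO libraries name a guide against Irf2. The response was set against the same treatment in WT cells, titled as having no guide, and in DKO cells, which lack IRF1 and IRF2 (4 libraries each, IFNγ and media). It was also set against IRF2KO cells given 5000 U/mL IFNα for 2 h (2 libraries). Whether an edited line is 1 clone, and whether the WT cells carry any control for the editing, is not given in the sources used here.

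IFNγ binds the receptor IFNGR1 and IFNGR2, whose kinases JAK1 and JAK2 start a signal that reaches GAS elements in the DNA and induces IRF1. IRF1 in turn activates genes that carry interferon-stimulated response elements (ISREs), among them the GTPases and antigen presentation genes that dendritic cells use against intracellular pathogens. IRF2 binds the same kind of element as IRF1 and is known mainly as a repressor of such genes, while at some genes it acts as an activator.

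Levels are in TPM, the share of a library's transcripts after division by length, which holds no read depth. The error given with a mean difference is its standard error (SE) on the log2(TPM + 1) scale, which understates the change of low genes. Tests are limma's, two-sided, with Benjamini-Hochberg adjustment over the 11842 genes tested, and a gene is called at an adjusted p under 0.05. With 2 libraries a group, the spread was shared by the 12 groups of 2 that the series holds. No label says that the 2 libraries of a group are separate cultures. Each p thus reflects the spread between libraries within these 12 groups, which may be technical.

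The promoters below belong to genes on which the results turn: Irf1, Igtp and Tgtp2, which are among the largest responses, and Gbp2, Gbp3, Gbp7 and Rsad2, whose response differed from that of WT cells. Each is the 250 bases before a transcript start in RefSeq (GRCm38.p6), the one farthest upstream in the promoter table, printed 5′ to 3′ on the gene's own strand, and capitals mark matches to 2 motifs, searched on both strands. The GAS motif was TTCNNNGAA, which is present in 7.01% of 32817 such RefSeq windows. The ISRE core was GAAANNGAA, which is present in 7.12% of them. Irf1 (chr11:53769764-53770013, plus strand) has 1 GAS match, while Igtp (chr11:58199306-58199555, plus strand) and Tgtp2 (chr11:49064213-49064462, minus strand) have 1 GAS and 1 ISRE match each. Gbp2 (chr3:142620413-142620662, plus strand) and Rsad2 (chr12:26456453-26456702, minus strand) have 1 ISRE match each. Gbp3 (chr3:142559794-142560043, plus strand) has 2 ISRE matches that share bases, and the last bases of its window lie inside the gene's annotated range, which starts at 142560016. Gbp7 (chr3:142530086-142530335, plus strand) has 2 GAS matches and 1 ISRE match. In none of the 7 windows do a GAS and an ISRE match share bases. A match describes these letters and is not evidence of binding.
Irf1: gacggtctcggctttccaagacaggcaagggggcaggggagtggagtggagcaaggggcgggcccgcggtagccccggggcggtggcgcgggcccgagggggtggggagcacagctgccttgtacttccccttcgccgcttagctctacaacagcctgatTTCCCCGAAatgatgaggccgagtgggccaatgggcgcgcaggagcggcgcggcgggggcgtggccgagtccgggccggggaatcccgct
Igtp: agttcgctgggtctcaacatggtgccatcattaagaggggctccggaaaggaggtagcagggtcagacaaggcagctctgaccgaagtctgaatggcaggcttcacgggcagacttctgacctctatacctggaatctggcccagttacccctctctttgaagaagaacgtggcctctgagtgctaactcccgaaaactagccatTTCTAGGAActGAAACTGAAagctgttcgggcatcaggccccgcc
Tgtp2: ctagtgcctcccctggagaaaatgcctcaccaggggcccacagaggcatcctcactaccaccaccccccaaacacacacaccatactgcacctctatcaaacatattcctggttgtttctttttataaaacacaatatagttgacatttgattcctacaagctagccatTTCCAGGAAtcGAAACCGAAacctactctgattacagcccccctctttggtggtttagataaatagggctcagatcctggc
Gbp2: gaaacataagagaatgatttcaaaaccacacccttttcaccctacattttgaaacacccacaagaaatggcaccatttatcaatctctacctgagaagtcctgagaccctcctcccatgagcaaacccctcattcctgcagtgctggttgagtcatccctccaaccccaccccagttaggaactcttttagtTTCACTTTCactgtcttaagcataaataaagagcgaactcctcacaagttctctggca
Gbp3: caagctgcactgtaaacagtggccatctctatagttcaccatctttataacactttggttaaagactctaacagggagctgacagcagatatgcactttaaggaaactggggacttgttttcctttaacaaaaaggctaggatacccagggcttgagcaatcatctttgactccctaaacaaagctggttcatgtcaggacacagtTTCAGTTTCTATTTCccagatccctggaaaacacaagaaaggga
Gbp7: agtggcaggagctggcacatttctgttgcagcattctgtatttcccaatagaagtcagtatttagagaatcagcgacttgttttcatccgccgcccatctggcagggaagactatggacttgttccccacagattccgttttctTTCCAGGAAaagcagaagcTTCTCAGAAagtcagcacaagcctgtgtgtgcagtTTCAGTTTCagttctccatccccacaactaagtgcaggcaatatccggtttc
Rsad2: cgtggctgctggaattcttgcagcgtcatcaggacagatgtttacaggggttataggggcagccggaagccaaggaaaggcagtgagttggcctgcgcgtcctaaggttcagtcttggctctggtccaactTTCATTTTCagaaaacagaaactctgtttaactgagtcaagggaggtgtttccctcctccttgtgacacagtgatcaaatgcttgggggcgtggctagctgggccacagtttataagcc

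Across the 4 libraries, 10921 to 11016 genes reached 1 TPM, and the top gene held 3.82% to 6.83% of the TPM. Across genes, which are not independent replicates, Pearson r of the 2 libraries of a group was 0.974 to 0.988 in the 12 groups. Of 20 dendritic cell markers, 10 were above 1 TPM in all 4 libraries, among them Itgax, Batf3, Id2 and Sirpa, while Flt3 was listed at 0 in all 4 and Clec9a at no more than 0.07 TPM. Of 16 macrophage and monocyte markers, 12 were above 1 TPM in all 4, with Lyz2 at 1211 and 1400 TPM with IFNγ and 1338 and 1467 TPM in media, so the line also carries macrophage markers at high levels. Their summed level was 3168 and 3125 TPM with IFNγ and 3069 and 3138 TPM in media, and that of the dendritic cell markers was 1048 and 924 TPM against 875 and 888 TPM. The lymphocyte list summed to no more than 5.22 TPM and the list of fibroblast, epithelial and endothelial markers to no more than 0.43 TPM. The part of marker levels in the results below was not tested.

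The targeted transcript was still present. Irf2 was at 22.3 and 22.1 TPM with IFNγ and 18.2 and 17.4 TPM in media in IRF2KO cells, against 33.3 and 30.6 TPM with IFNγ and 23.4 and 25.2 TPM in media in WT cells. Under IFNγ its level in IRF2KO minus WT cells was −0.51 ± 0.14 on the log2 scale (limma adjusted p = 0.15). A guide edit need not remove the transcript, so these levels do not check the label. Irf1 was induced in DKO cells too, to 593 and 632 TPM, against 28.1 and 36.0 TPM in media, so its RNA does not check that label either.

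In IRF2KO cells, 2 h of IFNγ raised the GTPases of cell-autonomous immunity, transcription factors such as Irf1 and Irf8, peptide transporters and chemokines, and lowered few genes. Limma called 123 genes higher, 1.04% of those tested, and 11 lower, 0.0929%. With the replicate number as a block, which pairs libraries that carry one date-like code, 215 were higher and 28 lower. The count of 134 fell to 67 without IFNγ replicate 1, to 83 without media replicate 1, and to 63 when the 2 groups were fitted alone.

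The receptor genes Ifngr1 and Ifngr2 and the kinase gene Jak2 were not called, but several transcription factors of the pathway were higher. Irf1, the early IFNγ-induced activator, was at 367 and 336 TPM with IFNγ, against 17.7 and 23.2 TPM in media, a difference of 4.05 ± 0.17 on the log2 scale (limma adjusted p = 4.4e-10). The IFNγ libraries of Irf1 stood close together and far above its media libraries. Stat2 was at 17.9 and 21.1 TPM with IFNγ, against 2.81 and 3.62 TPM in media, and Stat3 at 179 and 167 TPM with IFNγ, against 53.7 and 68.0 TPM in media. Irf9, the DNA-binding subunit of the ISGF3 complex, was at 17.75 and 17.2 TPM with IFNγ, against 3.08 and 2.75 TPM in media. Irf8, a factor of dendritic cell and macrophage identity, was at 258 and 212 TPM with IFNγ, against 45.3 and 51.95 TPM in media (2.25 ± 0.14, adjusted p = 7.2e-08). All 4 were called. No gene called in this comparison overlapped between groups, but with 2 libraries a group that carries little weight. How many uncalled genes show no overlap was not counted.

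Of 21 tested genes of interferon receptor and JAK-STAT signalling, 3 were higher and 1 was lower, with a median of 0.05 on the log2 scale against 0.02 for all genes tested. The lower one was Socs2, a feedback inhibitor of cytokine signalling, at 50.1 and 43.8 TPM with IFNγ, against 67.2 and 64.4 TPM in media (−0.48 ± 0.11, adjusted p = 0.048), and it was no longer called when any 1 of the 4 libraries was left out. Ifngr1 was at 31.15 and 29.6 TPM with IFNγ, against 33.8 and 32.8 TPM in media, and Ifngr2 at 255 and 173 TPM, against 242 and 192 TPM. Socs1, the main brake on JAK kinases in the IFNγ pathway, was at 162 and 161 TPM with IFNγ, against 28.0 and 37.9 TPM in media. The groups did not overlap, but the SE was 0.89 for a difference of 2.27 (adjusted p = 0.55). Socs1 was called when the 2 groups were fitted alone. The SE is shared by the 12 groups, and the WT libraries of Socs1 were at 39.1 and 145 TPM with IFNγ, against 3.58 and 17.75 TPM in media. Of 11 tested IRF family genes, 3 were higher (Irf1, Irf8 and Irf9), with a median of 0.31. Irf7, which amplifies type I interferon responses, was at 1.28 and 1.01 TPM with IFNγ, against 0.41 and 0.27 TPM in media (adjusted p = 0.26).

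**Figure D1:**
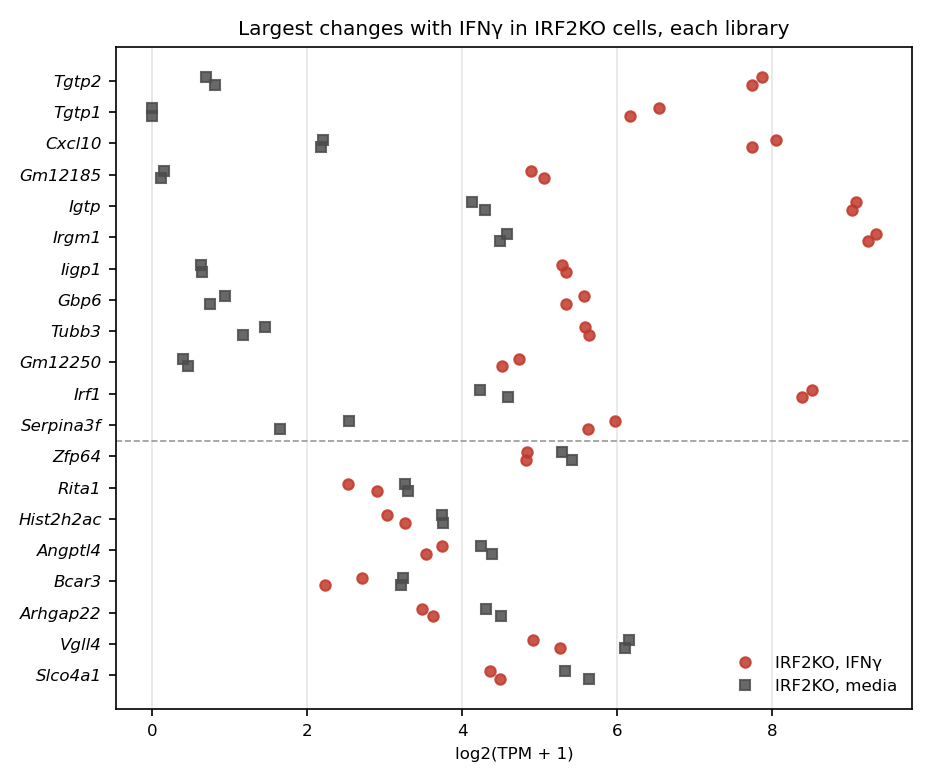
Level of the 12 genes with the largest rise (above the dashed line) and the 8 with the largest fall in IRF2KO cells, as log2(TPM + 1) on the horizontal axis, with each library as a point, IFNγ in red circles and media in grey squares. The 20 genes were chosen among those whose groups do not overlap, and their rises (from 3.71 to 7.05 on the log2 scale) are far larger than the falls (down to −1.05).

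The immunity-related GTPases (IRGs), which attack the vacuoles of intracellular pathogens, held the largest response. Of 14 tested, 11 were higher, with a median of 3.54 on the log2 scale against 0.02 for all genes tested. The 14 include Gvin1, a very large inducible GTPase counted with the IRGs here. Tgtp2 was at 233 and 213 TPM with IFNγ, against 0.62 and 0.75 TPM in media, a difference of 7.05 ± 0.30 (limma adjusted p = 4.4e-10). Igtp, also called Irgm3, was at 543 and 525 TPM with IFNγ, against 16.45 and 18.6 TPM in media (4.85 ± 0.20, adjusted p = 3.8e-10). Irgm1, a regulator of the other IRGs, was at 649 and 603 TPM with IFNγ, against 22.9 and 21.4 TPM in media (4.76 ± 0.13, adjusted p = 1.3e-12). For each of these 3 genes the libraries of a group lay close together and the groups far apart. Gm12185, an interferon-inducible GTPase outside the list, was at 28.7 and 32.4 TPM with IFNγ, against 0.11 and 0.08 TPM in media (4.85 ± 0.33). Iigp1, an effector that loads onto pathogen vacuoles, was at 38.05 and 39.5 TPM with IFNγ, against 0.55 and 0.56 TPM in media (4.68 ± 0.25). Tgtp1 was at 92.0 and 71.2 TPM with IFNγ and was listed at 0 in both media libraries (adjusted p = 3.2e-11). The other called members were Irgm2, Ifi47, Gm4951, F830016B08Rik, Gm5431 and Gm12250, with differences from 0.93 to 4.20. The 3 that were not called were 9930111J21Rik1 (1.35, adjusted p = 0.059), Gvin1 (1, adjusted p = 0.1) and 9930111J21Rik2 (0.67, adjusted p = 0.94). The first 2 were called with the replicate block, at adjusted p = 0.0013 and 0.0058. Tgtp1 and Tgtp2, like several other members of this family, are near-identical copies, and how reads were divided between them is uncertain.

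Guanylate-binding proteins (GBPs), larger interferon-induced GTPases that coat and lyse pathogen vacuoles, were the other responsive family. Of 10 tested, 8 were higher, with a median of 2.00. Gbp6 was at 46.5 and 39.6 TPM with IFNγ, against 0.92 and 0.67 TPM in media (4.62 ± 0.21, limma adjusted p = 7.9e-10). Gbp4 was at 283 and 255 TPM with IFNγ, against 29.2 and 36.7 TPM in media (3 ± 0.28, adjusted p = 5.1e-06). Gbp5, which promotes inflammasome assembly, was at 51.25 and 39.25 TPM with IFNγ, against 13.6 and 8.86 TPM in media (1.93 ± 0.22, adjusted p = 7.1e-05). Gbp8, Gbp10 and Gbp11 were also higher, and Gbp10 was listed at 0 in both media libraries. Gbp2 and Gbp7 were higher by 2.07 ± 0.41 and 0.95 ± 0.16 (adjusted p = 0.015 and 0.005). Gbp2 was no longer called without either IFNγ library or without media replicate 2, and Gbp7 without IFNγ replicate 1 or media replicate 1. Gbp3 was at 384 and 310.3 TPM with IFNγ, against 226 and 220.2 TPM in media, with no overlap but no call (0.63 ± 0.25, adjusted p = 0.56). Gbp9 was not called either (1.30 ± 0.32, adjusted p = 0.073), though it was with the replicate block (adjusted p = 0.0048). Gbp2b did not reach the level needed for the test.

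Genes that load peptides onto MHC class I rose in part. Of 23 tested, 4 were higher, with a median of 0.31, and with the replicate block 7 were. Tap1, a subunit of the peptide transporter, was at 96.8 and 82.8 TPM with IFNγ, against 14.35 and 15 TPM in media (2.53 ± 0.17, limma adjusted p = 1.3e-07). Its partner Tap2 was at 39.25 and 24.2 TPM with IFNγ, against 11.6 and 5.09 TPM in media (1.86 ± 0.29, adjusted p = 0.0017), and was not called without IFNγ replicate 1. Psmb9, a catalytic subunit of the immunoproteasome, was at 47.1 and 46.9 TPM with IFNγ, against 18.3 and 13.97 TPM in media (1.5 ± 0.22, adjusted p = 0.0012). Nlrc5, the transactivator of MHC class I genes, was at 25.9 and 29.3 TPM with IFNγ, against 8.88 and 12.3 TPM in media (1.31 ± 0.27, adjusted p = 0.02). Among these, the 2 Tap2 libraries of a group were the furthest apart. The heavy chain H2-K1 was at 234 and 237 TPM with IFNγ, against 197 and 182 TPM in media, and was not called (0.31 ± 0.09, adjusted p = 0.23). B2m, the light chain, was not called at 0.27 ± 0.12, nor the immunoproteasome subunit Psmb8 at 0.36 ± 0.12, nor the trimming enzyme Erap1 at 0.89 ± 0.23 (adjusted p = 0.73, 0.32 and 0.12). Nlrc5 was no longer called without either IFNγ library or without media replicate 1. Of 15 tested MHC class II genes only Ciita, the class II transactivator, was called, at 32.7 and 29.3 TPM with IFNγ, against 8.19 and 7.98 TPM in media (1.81 ± 0.25, adjusted p = 0.00059). The median of that list was −0.05.

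Surface ligands and secreted factors rose for a few genes each. Cd274 (PD-L1), a ligand that restrains T cells, was at 121 and 108 TPM with IFNγ, against 44.4 and 32.5 TPM in media (1.57 ± 0.24, limma adjusted p = 0.0014). Icam1, an adhesion molecule of T cell contacts, was at 383 and 365 TPM with IFNγ, against 133 and 142 TPM in media (1.44 ± 0.13, adjusted p = 3.4e-06). They were the 2 higher genes of 10 tested checkpoint and costimulatory ligands, and 4 were higher with the replicate block. Cxcl10, a chemokine that recruits activated T cells, was at 265 and 214 TPM with IFNγ, against 3.6 and 3.54 TPM in media (5.71 ± 0.58, adjusted p = 1.5e-05). Cxcl9, which shares its receptor, was at 4.57 and 1.77 TPM with IFNγ and was listed at 0 in both media libraries (adjusted p = 0.017). It was no longer called without IFNγ replicate 1 or without either media library. Il15ra, which presents interleukin 15, was at 11.3 and 9.45 TPM with IFNγ, against 3.38 and 3.53 TPM in media (1.35 ± 0.23, adjusted p = 0.005), and was not called without IFNγ replicate 1 or media replicate 1. These 3 were the higher genes of 21 tested cytokines and chemokines, and 5 were higher and 1 lower with the replicate block. Outside the lists, Tubb3, a tubulin best known from neurons, was at 47.3 and 48.8 TPM with IFNγ, against 1.74 and 1.26 TPM in media (4.30 ± 0.27, adjusted p = 7.2e-08). Serpina3f, a protease inhibitor, was at 62.0 and 48.5 TPM with IFNγ, against 4.81 and 2.13 TPM in media (3.71 ± 0.45, adjusted p = 0.00012).

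Antiviral genes of the kind driven by ISGF3 rose in part. Of 47 tested, 11 were higher, with a median of 0.54, and 15 with the replicate block. Rsad2 (viperin), which makes an inhibitory nucleotide, was at 11.65 and 7.64 TPM with IFNγ, against 1.11 and 0.63 TPM in media (2.49 ± 0.22, limma adjusted p = 2.9e-06). Cmpk2, the nucleotide kinase encoded next to it, was at 13.1 and 10.2 TPM with IFNγ, against 1.99 and 1.08 TPM in media (2.33 ± 0.24, adjusted p = 1.5e-05). Ifit3, which binds viral RNA with its relatives, was at 9.46 and 6.19 TPM with IFNγ, against 0.48 and 0 TPM in media (2.83 ± 0.24, adjusted p = 1.7e-06). In all 3 genes IFNγ replicate 1 was the highest library. Ifit1 was at 6.87 and 5.06 TPM with IFNγ, against 0.45 and 0.55 TPM in media. Trim21, an antibody receptor in the cytosol, was at 5.43 and 4.17 TPM with IFNγ, against 0.35 and 0.32 TPM in media. Isg15, a ubiquitin-like modifier, was at 5.32 and 3.24 TPM with IFNγ, against 1.38 and 0.48 TPM in media, and was not called (1.46 ± 0.38, adjusted p = 0.1) except with the replicate block (adjusted p = 0.0056). The other called genes were Ifit2, Rtp4, Eif2ak2, Ube2l6, Trafd1 and Slfn8, of which Rtp4 lost its call whichever of the 4 libraries was left out.

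Of 13 tested nuclear body and PARP genes, 6 were higher, with a median of 0.77. Parp14, an ADP-ribosyltransferase, was at 7.94 and 9.01 TPM with IFNγ, against 0.55 and 0.42 TPM in media (2.67 ± 0.20, limma adjusted p = 4.1e-07). Dtx3l was at 77.4 and 71.2 TPM with IFNγ, against 20.1 and 24.1 TPM in media, and Parp9, whose protein it binds, at 54.0 and 42.8 TPM with IFNγ, against 17.9 and 15.3 TPM in media. Sp140, a chromatin reader, was at 19.7 and 15.3 TPM with IFNγ, against 7.24 and 6.57 TPM in media (1.22 ± 0.13, adjusted p = 4.5e-05). The annotated ranges of Sp140 and Sp110 overlap, as do those of Parp9 and Dtx3l, and the strand setting of the counting is not given in the sources used here. Of 25 tested sensors of nucleic acids and microbes, 6 were higher, with a median of 0.16, and 8 with the replicate block. Nod1, a sensor of bacterial cell walls, was at 11.9 and 8.91 TPM with IFNγ, against 1.49 and 1.46 TPM in media (2.19 ± 0.23, adjusted p = 1.9e-05). Ddx58 (RIG-I) was at 1.77 and 1.35 TPM with IFNγ, against 0.18 and 0.36 TPM in media (1.01 ± 0.19, adjusted p = 0.013), and was not called without IFNγ replicate 1 or media replicate 1. Its relative Ifih1 (MDA5) was at 0.08 and 0.17 TPM with IFNγ, against 0.09 and 0.08 TPM in media. The other called genes were Nod2 and the PYHIN family genes Ifi203, Mnda and Mndal. These last 3 were not called without IFNγ replicate 2, media replicate 1 or media replicate 2 (Ifi203), without IFNγ replicate 1 or media replicate 2 (Mnda), or without IFNγ replicate 1 (Mndal).

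The joint list of NF-kB feedback genes and immediate early genes gave 2 higher of 28 tested, with a median of 0.46, and 7 with the replicate block. Zfp36, which destabilises cytokine mRNAs, was at 117 and 89.2 TPM with IFNγ, against 30.5 and 25.1 TPM in media (1.85 ± 0.35, limma adjusted p = 0.011). Atf3, a stress-induced transcription factor, was at 228 and 212 TPM with IFNγ, against 120.15 and 92.0 TPM in media (1.06 ± 0.22, adjusted p = 0.022). Each lost its call in 3 of the 4 fits that left out 1 library. Of all 11842 genes tested, 773 had an unadjusted limma p under 0.05 in this response. Limma called 0 of 22 cell death effectors, though 5 had an unadjusted p under 0.05. The replicate block gave 3 calls. One of these was Casp4 (caspase-11), at 44.6 and 33.7 TPM with IFNγ, against 18.5 and 8.46 TPM in media (1.55 ± 0.39, adjusted p = 0.093, or 0.00011 with the block). Gsdmd, the pore-forming executor of pyroptosis, was at 5.21 and 3.07 TPM with IFNγ, against 3.8 and 2.56 TPM in media. Limma called 0 of 17 effector enzymes, with 3 at an unadjusted p under 0.05. The block gave 1 call, Irg1, the itaconate-producing enzyme (1.63, adjusted p = 0.73, or 2.7e-05 with the block). Limma without the block called 0 of 14 macrophage and monocyte markers, though 4 had an unadjusted p under 0.05. The block gave 1 higher and 1 lower. Of 14 constitutive proteasome subunits, 25 cell cycle genes, 12 dendritic cell markers and 1 lymphocyte marker tested, limma called 0, and 0 had an unadjusted p under 0.05. The fibroblast, epithelial and endothelial markers had no member at the level needed for the test.

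Genes that fell did so modestly. Vgll4, a cofactor of TEAD transcription factors, was at 29.2 and 37.6 TPM with IFNγ, against 70.55 and 68.0 TPM in media (−1.04 ± 0.17, limma adjusted p = 0.0023). Slco4a1, an organic anion transporter, was at 19.6 and 21.5 TPM with IFNγ, against 39.2 and 48.85 TPM in media (−1.05 ± 0.22, adjusted p = 0.023). Arhgap22, a regulator of Rac, was at 10.1 and 11.3 TPM with IFNγ, against 18.8 and 21.7 TPM in media (−0.86 ± 0.14, adjusted p = 0.0031). Bcar3, Angptl4, Hist2h2ac, Rita1 and Zfp64 fell by less, from −0.76 to −0.52, and Hey1, Kcna3 and Socs2 made up the 11. Slco4a1, Angptl4, Hist2h2ac and Zfp64 lost their calls whichever library was left out, Vgll4 without IFNγ replicate 1, and Arhgap22 without IFNγ replicate 1 or media replicate 2. Bcar3 and Rita1 each lost theirs in 3 of the 4 fits. The lower count ran from 1 to 4 when 1 library was left out and was 0 when the 2 groups were fitted alone.

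**Figure D2:**
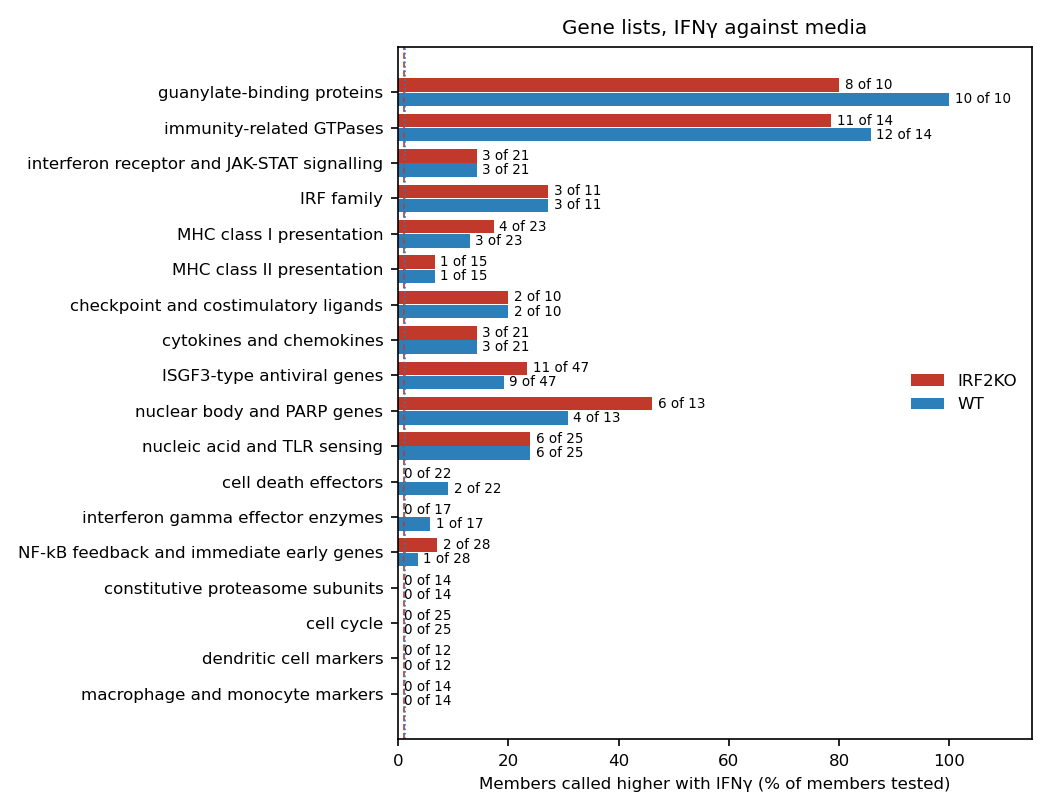
Share of the tested members of each gene list that was called higher with IFNγ, in percent, for IRF2KO cells (red, upper bar) and WT cells (blue, lower bar), with lists of at least 5 tested members and the counts beside the bars. Dashed red and dotted blue lines mark the share of all tested genes called higher, 1.04% in IRF2KO and 1.2% in WT cells, and the bars of the 2 GTPase families are the longest in both genotypes.

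The next question was whether the response differs with IRF2 present. In WT cells 142 genes were called higher with IFNγ, 1.2% of those tested. This count was 206 with the replicate block, 90 without WT media replicate 2 and 45 with the 2 groups fitted alone. Of these, 93 were also called in IRF2KO cells, which is 75.6% of the 123 in IRF2KO and 65.5% of the 142 in WT. The 2 responses have no library in common, but 1 fit gave both the same SE for each gene, so their calls are not independent. The 123 genes, chosen on their IRF2KO values, had a median difference of 1.5 in IRF2KO and 1.38 in WT cells, against −0.01 for all tested genes in WT. A call in 1 genotype alone does not show a difference, so the difference of the 2 responses was tested for each gene. Limma called 4 genes, 0.0338% of those tested, and 175 had an unadjusted p under 0.05. In tests on simulated data with 2-fold changes in this comparison, 54% of changed genes were called, so smaller differences can be missed. These changes were placed only in genes with a mean log2 level of at least that of 5 TPM, with independent noise. The share does not cover lower genes.

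**Figure D3:**
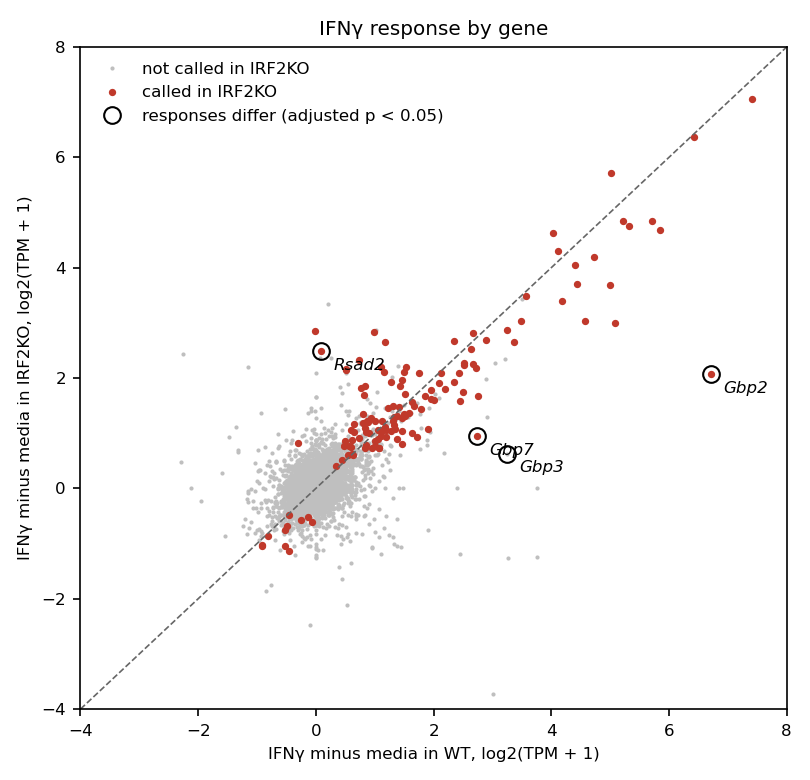
Difference with IFNγ, log2(TPM + 1), in WT cells (horizontal) and IRF2KO cells (vertical) for the 11842 tested genes, with genes called in IRF2KO in red, others in grey and the dashed line marking equal responses. Open circles mark the 4 genes whose responses differ: Gbp2, Gbp3 and Gbp7 lie below the line and Rsad2 above it.

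Gbp2, Gbp3 and Gbp7, neighbours on chromosome 3, had a smaller log2 difference with IFNγ in IRF2KO than in WT cells. In TPM the mean of each rose by more in IRF2KO cells. That of Gbp2 went from 239 to 966 TPM, against 2.7 to 339 TPM in WT cells. All 3 were already high in IRF2KO cells in media. Gbp5, next to Gbp7, was also higher in IRF2KO cells in media, at 13.6 and 8.86 TPM against 0.12 TPM in both WT libraries. With IFNγ it was at 51.25 and 39.25 TPM, against 4.84 and 4.51 TPM in WT cells. Its difference of responses was not called (−0.41 ± 0.32), on a scale that understates the change of low genes. Gbp2 was at 1099 and 833 TPM with IFNγ and 313 and 165 TPM in media in IRF2KO cells, against 334 and 344 TPM with IFNγ and 4.48 and 0.92 TPM in media in WT cells. The response differed by −4.64 ± 0.57 (limma adjusted p = 0.0043), being 2.07 ± 0.41 in IRF2KO and 6.71 ± 0.41 in WT cells. The 2 IRF2KO media libraries of Gbp2 were below both WT libraries given IFNγ and far above both WT media libraries. Gbp3 was at 384 and 310.3 TPM with IFNγ and 226 and 220.2 TPM in media in IRF2KO cells, against 52.8 and 64.85 TPM with IFNγ and 5.34 and 5.19 TPM in media in WT cells (difference of responses −2.62 ± 0.35, adjusted p = 0.0049). Gbp7 was at 312 and 254 TPM with IFNγ and 139 and 152 TPM in media in IRF2KO cells, against 96.7 and 98.1 TPM with IFNγ and 13.6 and 13.85 TPM in media in WT cells (−1.79 ± 0.23, adjusted p = 0.0043). For Gbp3 and Gbp7 every IRF2KO media library exceeded every WT library given IFNγ. Their calls were lost without IRF2KO IFNγ replicate 2, where the count of 4 became 2, and that of Gbp2 when the compared groups were fitted alone.

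Rsad2 went the other way. It was at 11.65 and 7.64 TPM with IFNγ and 1.11 and 0.63 TPM in media in IRF2KO cells, against 0.09 and 0.04 TPM with IFNγ and 0 in both media libraries of WT cells. The response differed by 2.40 ± 0.31 (limma adjusted p = 0.0043), and no WT library reached 1 TPM. This call was lost at a pseudocount of 0.1, with an adjusted p of 1, and when the compared groups were fitted alone. With the replicate block 7 genes were called, the additional ones being Gbp4 (−2.08, adjusted p = 0.03), Ly6a (−1.54, adjusted p = 0.046) and Ifit3 (1.85, adjusted p = 0.033). Without the block their adjusted p were 0.14, 1 and 0.11. Gbp4 was at 283 and 255 TPM with IFNγ and 29.2 and 36.7 TPM in media in IRF2KO cells, against 58.2 and 49.3 TPM with IFNγ and 0.7 and 0.52 TPM in media in WT cells. At a pseudocount of 5 the count was also 7. Of 10 tested GBPs, 3 thus responded less on the log2 scale in IRF2KO cells. The median difference of the family was −1.34, against 0.03 for all genes. Of 14 tested IRGs limma called 0, with 8 at an unadjusted p under 0.05 and a median of −0.64. Irf1 (−0.36 ± 0.24) was not called for this difference either, at an adjusted p of 1.

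**Figure D4:**
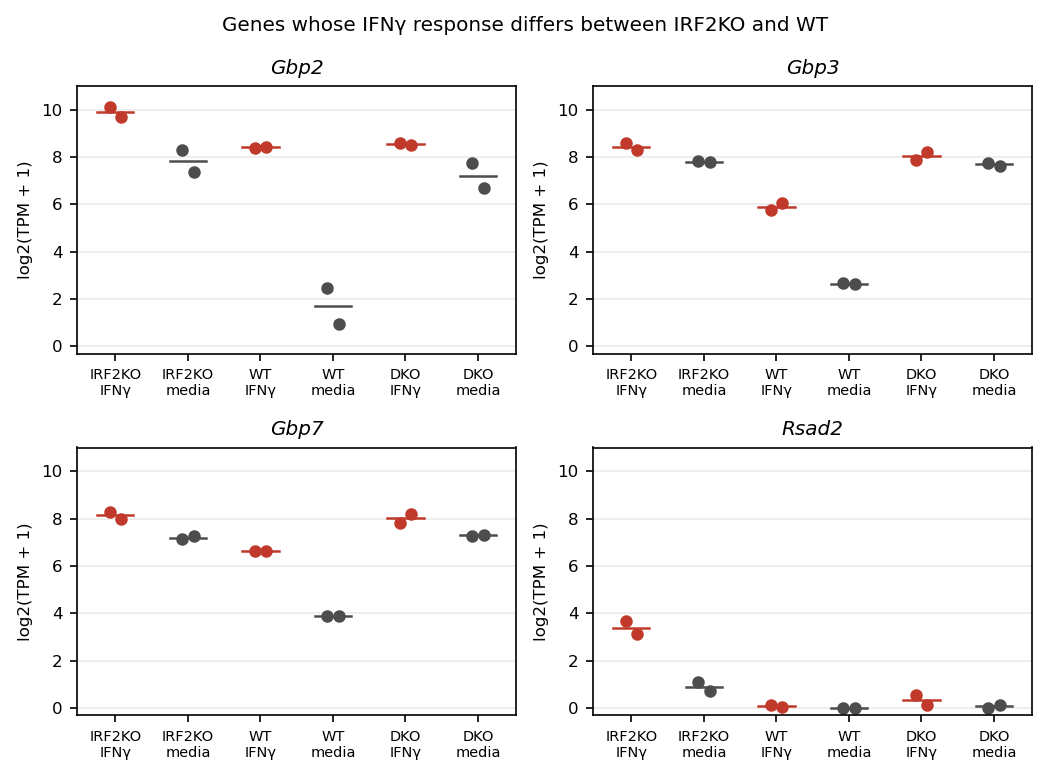
Level of Gbp2, Gbp3, Gbp7 and Rsad2 as log2(TPM + 1) in each library (points) with the group mean (line), IFNγ in red and media in grey, for IRF2KO, WT and DKO cells from left to right. The media points of the 3 Gbp genes are high in IRF2KO and DKO cells and low in WT cells, and Rsad2 is above 1 TPM with IFNγ in IRF2KO cells but not in WT or DKO cells.

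Set beside cells that lack IRF1 as well, the IRF2KO response was larger for a group of GTPase and antiviral genes. In DKO cells 83 genes were called higher with IFNγ, 0.701% of those tested. This count was 153 with the replicate block, 50 without DKO media replicate 1, 50 without DKO media replicate 2 and 9 with the 2 groups fitted alone. Of these 83, 71 were also called in IRF2KO cells, which is 57.7% of the 123 in IRF2KO and 85.5% of the 83 in DKO. The difference of the 2 responses was called for 15 genes, 0.127% of those tested, all with the larger response in IRF2KO cells. Limma called 0 in the other direction, and 278 genes had an unadjusted p under 0.05 in either direction. The 15 were 5 IRGs (Iigp1, Gm12250, Tgtp2, Tgtp1 and Ifi47), 3 GBPs (Gbp6, Gbp10 and Gbp11), Rsad2, Cmpk2 and Ifit3, Parp14 and Sp140, and the less described Gm14446 and BC023105.

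Iigp1 was at 38.05 and 39.5 TPM with IFNγ and 0.55 and 0.56 TPM in media in IRF2KO cells, against 2.19 and 5.41 TPM with IFNγ and 0.32 and 0.4 TPM in media in DKO cells (difference of responses 2.94 ± 0.35, limma adjusted p = 0.0022). Gm12250, an IRG also known as Irgb10, was at 25.6 and 21.8 TPM with IFNγ and 0.31 and 0.37 TPM in media in IRF2KO cells, against 2.66 and 2.33 TPM with IFNγ and 0.07 and 0.54 TPM in media in DKO cells (2.76 ± 0.30, adjusted p = 0.0017). Gbp6 was at 46.5 and 39.6 TPM with IFNγ in IRF2KO cells, against 4.04 and 5.7 TPM with IFNγ in DKO cells, with no media library of either above 0.92 TPM (2.2 ± 0.30, adjusted p = 0.0041). In these 3 genes no media library reached 1 TPM, and the IFNγ levels of the genotypes were far apart. Gbp6 was already higher in IRF2KO cells in media, at 0.92 and 0.67 TPM against 0.08 and 0.1 TPM in DKO cells. Its difference of responses was 0.91 at a pseudocount of 0.1. Ifi47 was at 110.3 and 89.0 TPM with IFNγ and 8.25 and 8.71 TPM in media in IRF2KO cells, against 10.9 and 14.1 TPM with IFNγ and 3.73 and 4.1 TPM in media in DKO cells. Rsad2 was at 0.46 and 0.08 TPM with IFNγ in DKO cells. For other GTPases no difference was called. Igtp was at 175 and 256 TPM with IFNγ and 6.34 and 4.91 TPM in media in DKO cells, and the difference of responses was −0.16 ± 0.28 (adjusted p = 1). That of Irgm1 was −0.64 ± 0.18 (adjusted p = 1), and that of Irf1 −0.17 ± 0.24 (adjusted p = 1).

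The 15 calls depend on the settings. At a pseudocount of 0.1 only Ifi47 was called, and limma called 0 genes when the compared groups were fitted alone, where 235 had an unadjusted p under 0.05. The difference itself was 0.23 for Tgtp2 and 0.91 for Gbp6 at a pseudocount of 0.1, while that of Iigp1 was 2.94, that of Gm12250 2.78 and that of Rsad2 2.18. The count was 6 without IRF2KO media replicate 2, 7 without IRF2KO IFNγ replicate 1 and 9 without DKO media replicate 1. The median difference of all genes was 0.09, and 0.007 with median scaling, under which the count was again 15. The annotated range of Gm14446 overlaps that of Ifit1, so reads of the 2 may not be told apart.

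**Figure D5:**
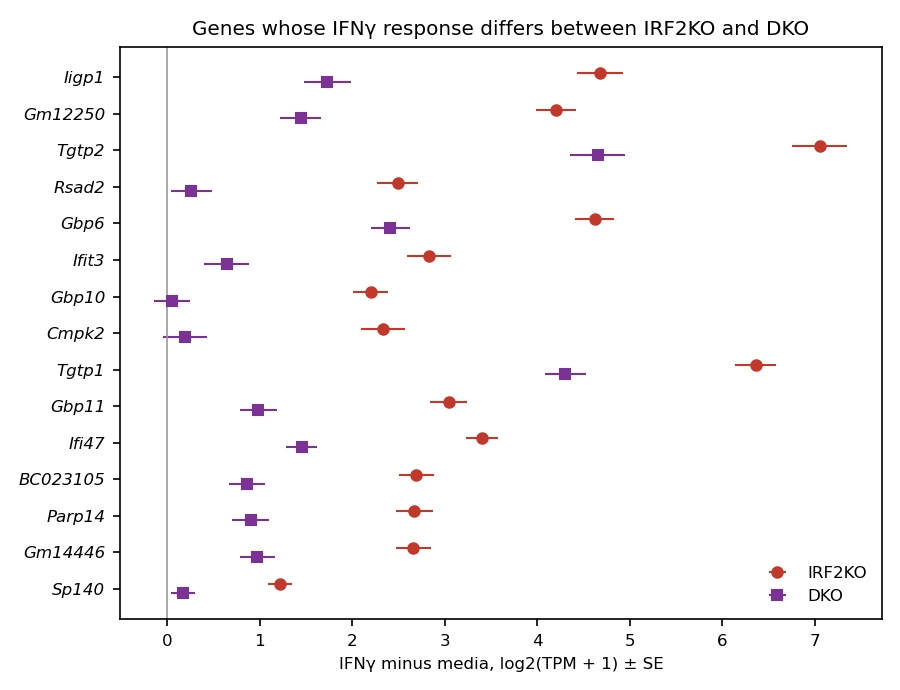
Difference with IFNγ, log2(TPM + 1), in IRF2KO cells (red circles, above) and DKO cells (purple squares, below) for the 15 genes whose responses differ, with bars for ± SE. The IRF2KO response is larger for every gene. Both genotypes rise for Tgtp2 and Tgtp1, whose media libraries are at or near 0, and for others such as Gbp6, Iigp1 and Gm12250.

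Within IRF2KO cells, IFNγ and IFNα, which signals through its own receptor to the ISGF3 complex, gave different levels of the same families. A direct contrast of the treated groups, which uses no media library, called 28 genes higher with IFNγ, 0.236% of those tested, and 69 higher with IFNα, 0.583%. With the replicate block the counts were 47 and 101. The total of 97 was 59 without IFNα replicate 1, 61 among genes with a mean of at least 5 TPM, and 7 when the 2 groups were fitted alone. Doses differ in unit, so the contrast compares these 2 treatments and not the potency of the cytokines.

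Higher with IFNγ were Tubb3, Enc1 and some of the IRGs, GBPs and IRF genes. Tubb3 was at 47.3 and 48.8 TPM with IFNγ, against 2.08 and 1.93 TPM with IFNα (4.03 ± 0.27, limma adjusted p = 1.5e-07). Tgtp1 was at 92.0 and 71.2 TPM with IFNγ, against 9.49 and 10.2 TPM with IFNα (2.92 ± 0.22, adjusted p = 4.3e-07). Enc1 was at 17.5 and 17.2 TPM with IFNγ, against 3.7 and 3.02 TPM with IFNα (2.07 ± 0.25, adjusted p = 0.00016). None of these 3 overlapped, which carries little weight with 2 libraries a group. The share of all genes without overlap was not counted. Irf8 was at 258 and 212 TPM with IFNγ, against 71.1 and 63.3 TPM with IFNα (1.79 ± 0.14, adjusted p = 1.1e-06), and Irf1 at 367 and 336 TPM with IFNγ, against 160.0 and 140.3 TPM with IFNα (1.22 ± 0.17, adjusted p = 0.00094). Of 11 tested IRF genes 2 were higher and 1 lower with IFNγ, with a median of −0.13. Of 14 tested IRGs 5 were higher and 1 lower with IFNγ, and of 10 GBPs 3 were higher, or 4 with the replicate block. Cd274 (0.12 ± 0.24), Tap1 (0.40 ± 0.17) and Cxcl10 (0.42 ± 0.58) were not called.

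Lower with IFNγ was the ISGF3 set, of which 28 of 47 tested genes were called, with a median of −1.23 against −0.05 for all genes, and 32 with the replicate block. Ifit1 was at 6.87 and 5.06 TPM with IFNγ, against 269 and 150.4 TPM with IFNα (−4.87 ± 0.22, limma adjusted p = 6.1e-09). Isg15 was at 5.32 and 3.24 TPM with IFNγ, against 132 and 98.7 TPM with IFNα (−4.48 ± 0.38, adjusted p = 1.9e-06). Rsad2 was at 11.65 and 7.64 TPM with IFNγ, against 139.7 and 95.6 TPM with IFNα (−3.48 ± 0.22, adjusted p = 6.9e-08). Irf7 was at 1.28 and 1.01 TPM with IFNγ, against 35.9 and 26.4 TPM with IFNα (−3.89 ± 0.21, adjusted p = 1.9e-08). The groups were far apart for each of the 4. Of 25 tested sensors 7 were lower with IFNγ, and of 13 nuclear body and PARP genes 5 were, or 9 with the replicate block.

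After IFNγ, 37 genes stood higher in IRF2KO than in WT cells (0.312% of those tested) and 58 lower (0.49%), or 96 and 163 with the replicate block, and limma called 0 when the 2 groups were fitted alone, where 914 had an unadjusted p under 0.05. The counts were 20 and 19 among genes with a mean of at least 5 TPM, and the total of 95 ran from 46 to 58 without any 1 of the 4 libraries. Rsad2 (3.30 ± 0.22), Gbp5 (3.02 ± 0.22) and Gbp3 (2.54 ± 0.25) were among the higher ones by limma, and Acadl (−3.12 ± 0.26), Ctso (−3.04 ± 0.17) and Gsdmd (−2.89 ± 0.24) among the lower, with adjusted p from 8.3e-08 to 2.7e-05. These last 3 did not respond by the test in IRF2KO cells: Gsdmd was at 5.21 and 3.07 TPM with IFNγ and 3.8 and 2.56 TPM in media, against 39.3 and 33.4 TPM with IFNγ and 33.65 and 28.5 TPM in media in WT cells. In media, IRF2KO minus WT was already 3.42 for Gbp5, 5.16 for Gbp3, −3.18 for Acadl, −3.12 for Ctso and −2.95 for Gsdmd, all called. For Rsad2 it was 0.89 (limma adjusted p = 0.09, or 0.034 with the block).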

How the data were processed

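RNA of the mouse line DC3.2 was sequenced by the submitters, who deposited 1 table of TPM values (abundance per transcript length, scaled to a fixed total), used here as deposited. Per the submitters' processing notes, bcl2fastq 2.20, Bowtie 0.12.2 and RSEM were used, with the builds mm10 and GRCm38 named without a role. TPM holds no read depth, so no count model fits these values, and library depth is unknown. Entries of a gene symbol were summed. On log2(TPM + 1) values, limma 3.58.1 (R 4.3.3) estimated the means of 12 groups of 2 libraries, with a trended prior. Genes had to reach 1 TPM in 2 or more of these 24 libraries. The fit left 12 residual degrees of freedom. In tests on simulated data, 76.7% of 2-fold and 98% of 4-fold changes were called for the IFNγ response in IRF2KO cells. These changes were placed only in genes with a mean log2 level of at least that of 5 TPM, with independent noise. The shares do not cover lower genes. The 6 single libraries of the series were not analysed here. Tables used Python 3.11.15, numpy 2.4.6 and pandas 2.3.3, and plots matplotlib 3.10.9.

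Genes named are the 12 largest rises and 8 largest falls called with a mean of at least 5 TPM and no overlap, the 6 largest in each direction in the other comparisons, up to 4 called members of each of 20 lists, and a fixed set. A few others were named after their values were seen, and 1 gene of the set is not reported here. The members and lists were chosen with earlier results of these data known. As alternatives, the pseudocount was set to 0.1 or 5, the filter was dropped or replaced by a mean of 5 TPM or more, and libraries were scaled by their median. Others were the replicate number as a block, the compared groups alone, and leaving out 1 library at a time.

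In the titles, a date-like code goes with each replicate number, and on this ground the numbers were taken to pair libraries. In 56 of 66 group pairs, deviations from the group mean of libraries with one number had a correlation over 0.1. The median was 0.233, the range −0.16 to 0.481, and the value for IFNγ and media in IRF2KO cells 0.242. Within 1 code each group has a single library, which allows no test.

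Promoter windows and gene positions are from RefSeq (GRCm38.p6) and were matched by symbol. Only 84 of the 123 genes called higher, 68.3%, had a window, so no share of motifs is given for that set.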

Additional observations from a re-analysis of the deposited data

Results flagged for a closer look

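The results singled out here are those in which the IFNγ response differed between genotypes by a test of the difference itself (limma, adjusted p under 0.05). Against WT cells, the IRF2KO response differed by −4.64 for Gbp2, −2.62 for Gbp3, −1.79 for Gbp7 and 2.40 for Rsad2 on the log2(TPM + 1) scale. Against DKO cells, it was larger by 2.94 for Iigp1, 2.76 for Gm12250, 2.40 for Tgtp2, 2.24 for Rsad2, 2.2 for Gbp6, 2.19 for Ifit3, 2.15 for Gbp10, 2.14 for Cmpk2, 2.06 for Tgtp1, 2.06 for Gbp11, 1.95 for Ifi47, 1.83 for BC023105, 1.77 for Parp14, 1.69 for Gm14446 and 1.04 for Sp140. At a pseudocount of 0.1 the difference from DKO was 0.23 for Tgtp2, 0.91 for Gbp6, 2.67 for BC023105, 2.68 for Tgtp1, 3.06 for Ifit3 and 4.91 for Gbp10, and the other 9 lay between 1.12 and 2.94. Without 1 of the 8 libraries at a time, Gbp2 and Rsad2 kept their call against WT in 8 of 8 fits, and Gbp3 and Gbp7 in 7 of 8. Parp14 kept its call against DKO in 0 of 8, Tgtp2 and Sp140 in 1 of 8, Gm14446 in 3 of 8, Tgtp1, Cmpk2 and Ifit3 in 4 of 8, BC023105 in 6 of 8, Rsad2 in 7 of 8, and Iigp1, Gm12250, Gbp6, Gbp10, Gbp11 and Ifi47 in 8 of 8.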

How the results depend on the processing

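The 134 calls of the IFNγ response in IRF2KO cells became 243 with the replicate block, which kept all 134, and 63 when the 2 groups were fitted alone, and ran from 67 to 103 when 1 library was left out. The other pseudocounts, filters and scaling gave 111 to 145. For the difference from WT the 4 calls became 7 with the replicate block and 7 at a pseudocount of 5, and ran from 2 to 5 without 1 library. For the difference from DKO the 15 calls became 1 at a pseudocount of 0.1 and 0 with the compared groups alone, and ran from 6 to 13 without 1 library. The contrast of IFNγ with IFNα gave 97 calls, 148 with the replicate block, 61 with a mean of at least 5 TPM, 7 with the groups alone, and 59 to 84 without 1 library. IRF2KO against WT under IFNγ gave 95, 259 with the replicate block, 39 with a mean of at least 5 TPM (51.3% higher, against 38.9%), 0 with the groups alone, and 46 to 58 without 1 library. With the groups alone or a stricter filter fewer libraries or genes enter the fit, and otherwise the cause was not tested. Of 85 named genes 61 were called, 36 of them in every setting, and none of the 61 changed direction. The uncalled Arsb (−0.19 to 0.08), Gsdmd (−0.02 to 0.59), Ifih1 (−0.01 to 0.11), Ifngr2 (−0.31 to 0.25) and Jak2 (−0.07 to 0.40) changed sign when 1 library was left out. Among these 85 genes, the block changed only the call of Isg15 in the IFNγ response in IRF2KO cells. Other calls and list counts it moved in this response are given beside their results or moved by less than 1.5 times. An exception is JAK-STAT signalling, where 2 genes in place of 1 were lower. In the other comparisons not every change with the block is given. Against IFNα it also called Ccl2, Ccl3 and Ccl4 lower and Tnfaip2 and Zfp36 higher with IFNγ, among others. Depth is unknown, so low genes carry a counting error that cannot be given.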
